A study of Mus musculus with 12 samples.

Results

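The colony-stimulating factor genes CSF1, CSF2 and CSF3 were followed in CT26 cells, a mouse colon carcinoma line, across 4 treatments. The members were taken by gene symbol, and all 3 were among the 23636 symbols of the expression table and among the 11878 genes tested. The groups were No treatment, CX3CL1 (recombinant fractalkine at 2 µg/ml), IFN-γ (100 ng/ml) and CX3CL1+IFN-γ, with 3 libraries in each and 8 hours of treatment, so all 12 libraries come from 1 cultured line. The labels name IFN-γ as the only cytokine beside CX3CL1, whereas the study's text also mentions TNF-α for these treatments, and which holds for the IFN-γ libraries was not resolved here. The libraries are named biological replicates, and no source says whether they came from separate cultures, so p-values measure the spread between these libraries. The study asked which soluble mediators tumor cells make in response to CX3CL1, with and without IFN-γ.

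The colony-stimulating factors are secreted proteins that drive the survival, growth and maturation of myeloid cells. CSF1 (M-CSF) supports monocytes and macrophages through the receptor CSF1R, CSF2 (GM-CSF) acts on granulocytes, macrophages and dendritic cells through CSF2RA and its beta chain CSF2RB, and CSF3 (G-CSF) drives neutrophil production through CSF3R. Despite their shared name the genes are not close relatives in sequence. Tumors that secrete these factors are known to recruit and expand myeloid cells. CSF2 and CSF3 are textbook inducible genes, switched on by inflammatory signals through NF-κB and C/EBP factors and limited by rapid decay of their AU-rich messenger RNAs, whereas many cell types make CSF1 without stimulation.

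The genes lie at separate places in the genome (GENCODE vM21, GRCm38, which is mm10). CSF1 is on chromosome 3 from 107741048 to 107760469 on the minus strand, with 4 coding transcripts. CSF2 is on chromosome 11 from 54247271 to 54249667 on the minus strand, and CSF3 is on the same chromosome from 98701263 to 98703629 on the plus strand, each with 1 coding transcript. The stretch after the stop codon carries the AU-rich pentamer ATTTA, the letters that mark short-lived cytokine messages, in very different amounts. The longest CSF2 transcript had 9 pentamers in 317 bases, or 28.4 per 1000 bases, a rate matched or exceeded by 0.0721% of the 11091 tested genes with such a stretch. CSF3 had 6 in 669 bases, or 8.97 per 1000 bases, which 1.27% of genes matched or exceeded. CSF1 had 4 in 2111 bases, or 1.89 per 1000 bases, near the median of 1.30, and 2 of its 4 coding transcripts had none. The longer motif TTATTTATT occurred 4 times in CSF2 and 0 times in CSF1 and CSF3, and 8.0% of genes held at least 1. Matches on the transcript strand were counted, overlapping ones included, and each is a run of letters and no measure of decay.

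The 30 bases with the most pentamers in each transcript are shown, with each ATTTA in capitals, because this density separates the members. They lie at chr3:107741096-107741125 (CSF1), chr11:54247320-54247349 (CSF2) and chr11:98702992-98703021 (CSF3), and read 5′ to 3′ on the transcript strand (GENCODE vM21).
CSF1: ATTTAaatatctATTTAaaaaataggaagc
CSF2: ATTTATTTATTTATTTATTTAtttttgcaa
CSF3: ATTTAtctctATTTAatATTTAtgcatatt
The CSF2 window held 5 overlapping pentamers, the CSF3 window 3 and the CSF1 window 2.

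**Figure D1:**
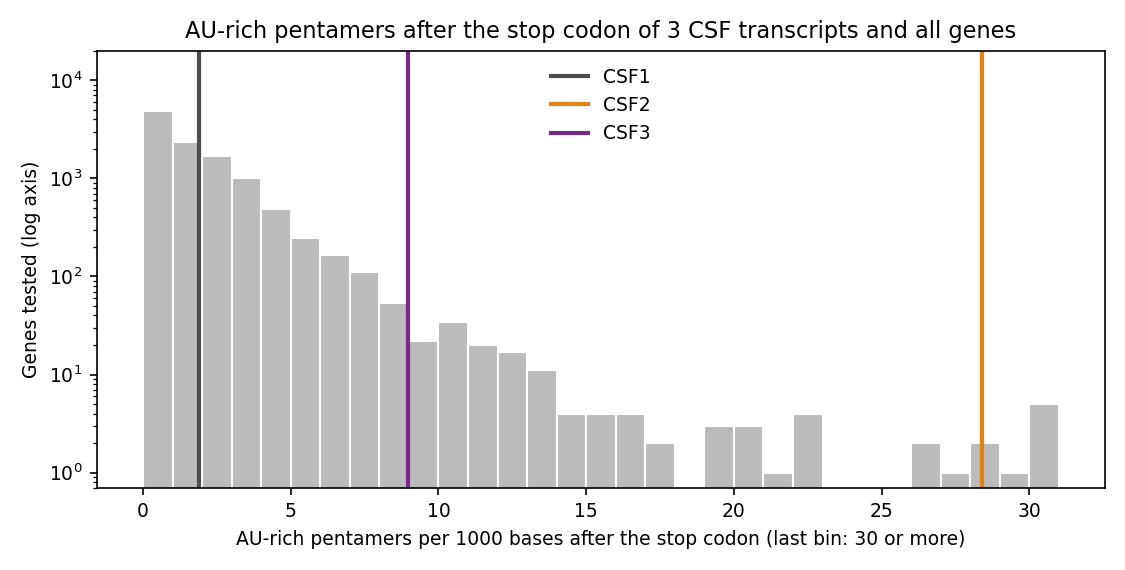
The x axis gives AU-rich pentamers per 1000 bases after the stop codon of the longest coding transcript, and the y axis (log scale) the number of tested genes in each bin. Vertical lines mark CSF1 at 1.89, CSF3 at 8.97 and CSF2 at 28.4, so CSF1 sits in the bulk of genes and CSF2 at the far right.

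RefSeq (GRCm38.p6) gave a promoter for 2 of the 3 genes, CSF1 and CSF2. The 250 bases before the CSF1 start, chr3:107760470-107760719 on the minus strand, held 1 match to the κB consensus bound by NF-κB, shown in capitals at chr3:107760614-107760623.
CSF1 promoter: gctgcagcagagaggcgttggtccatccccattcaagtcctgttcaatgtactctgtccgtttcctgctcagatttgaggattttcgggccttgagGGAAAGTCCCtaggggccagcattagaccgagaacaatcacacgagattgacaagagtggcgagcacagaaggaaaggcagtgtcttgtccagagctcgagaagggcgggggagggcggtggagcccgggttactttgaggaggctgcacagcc
On both strands, 7.25% of 32851 promoter windows of this length held the κB consensus. Neither window held the CK-1 cytokine element (0.167% of windows), the AP-1 site TGANTCA (6.75%), the GAS element TTCNNNGAA (7.02%), the interferon-stimulated response element ISRE (2.98%) or TATAAA (12.4%). The CSF2 window held no κB consensus either, and it lies upstream of the RefSeq start, which is itself 232 bases upstream of the GENCODE start. The bases just upstream of the GENCODE start of CSF2 therefore fall outside the window, and they were not searched for any of these motifs. A match or its lack describes these letters only.

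The deposited values are TPM, shares of a fixed total of 1000000 per library that are scaled for transcript length, so levels of different genes can be set side by side. They carry no read depth, and no counting error could be given. RPL26, which encodes a protein of the ribosome, was listed at 0 in all 12 libraries, so a listed 0 may mean that no estimate was made. CX3CL1 replicate 2 was the library least like the others of its group. Its genes differed from those of replicates 1 and 3 by a median of 0.266 and 0.262 on the log2 scale, against 0.141 between those 2 libraries. Of 7 epithelial markers only KRT18 reached 1 TPM, and EPCAM was listed at 0 in all libraries. The summed epithelial markers ran from 34.5 to 53.8 TPM without treatment, 25.3 to 37.1 with CX3CL1, 26 to 29.7 with IFN-γ and 18.5 to 24.5 with both. KRT18 was called lower with IFN-γ (log2 difference -0.68, limma adjusted p = 0.0346), a call lost in 5 of the 6 fits without 1 library. Of 8 leukocyte markers only CD68 reached 1 TPM, and CD3E was listed at 0 throughout, with PTPRC at no more than 0.0441 TPM. The summed leukocyte markers ran from 8.64 to 16.3 TPM without treatment, 8.06 to 20.4 with CX3CL1, 9.29 to 19.8 with IFN-γ and 10.1 to 27.1 with both. The 3 endothelial markers summed to at most 0.0725 TPM, and of 4 fibroblast markers PDGFRA, PDGFRB and DCN reached 1 TPM, with sums of 8.93 to 15.3 TPM without treatment, 8.02 to 11.6 with CX3CL1, 8.02 to 16.8 with IFN-γ and 10.3 to 18.1 with both. DCN was called higher with both agents than with CX3CL1 (log2 difference 0.95, limma adjusted p = 0.00249). The part of these markers in the CSF values was not tested. CX3CR1, the receptor of CX3CL1, stayed at or below 0.154 TPM and was not tested. These are RNA values, whereas the study reported high CX3CR1 on cultured CT26 cells by flow cytometry, which measures protein. IRF1, CXCL9, GBP2 and IIGP1, genes that IFN-γ is known to induce, were all called higher in IFN-γ than in untreated libraries. GBP2 was also called higher with CX3CL1 alone (log2 difference 2.82, limma adjusted p = 0.00103), and in all 6 fits without 1 library. IRF1, CXCL9 and IIGP1 were not called with CX3CL1 alone in the main fit.

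CSF1 dominated the family in every library. It made up 99.8% to 99.9% of the summed CSF1, CSF2 and CSF3 level without treatment and 97.8% to 99.4% with CX3CL1+IFN-γ. Untreated cells held 634 to 1705 times as much CSF1 as CSF2 on the TPM scale. CSF1 ranked between 706 and 750 among the 23636 symbols in untreated libraries and between 222 and 374 with both agents. CSF2 stayed below 5 TPM and CSF3 below 10 TPM in all 12 libraries. CSF2 was above CSF3 in all 3 untreated and all 3 CX3CL1 libraries and in replicates 2 and 3 with IFN-γ. CSF3 was above CSF2 in IFN-γ replicate 1 and in all 3 libraries with CX3CL1+IFN-γ. In bulk RNA a change in the number of expressing cells and a change in RNA per cell cannot be told apart.

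**Figure D2:**
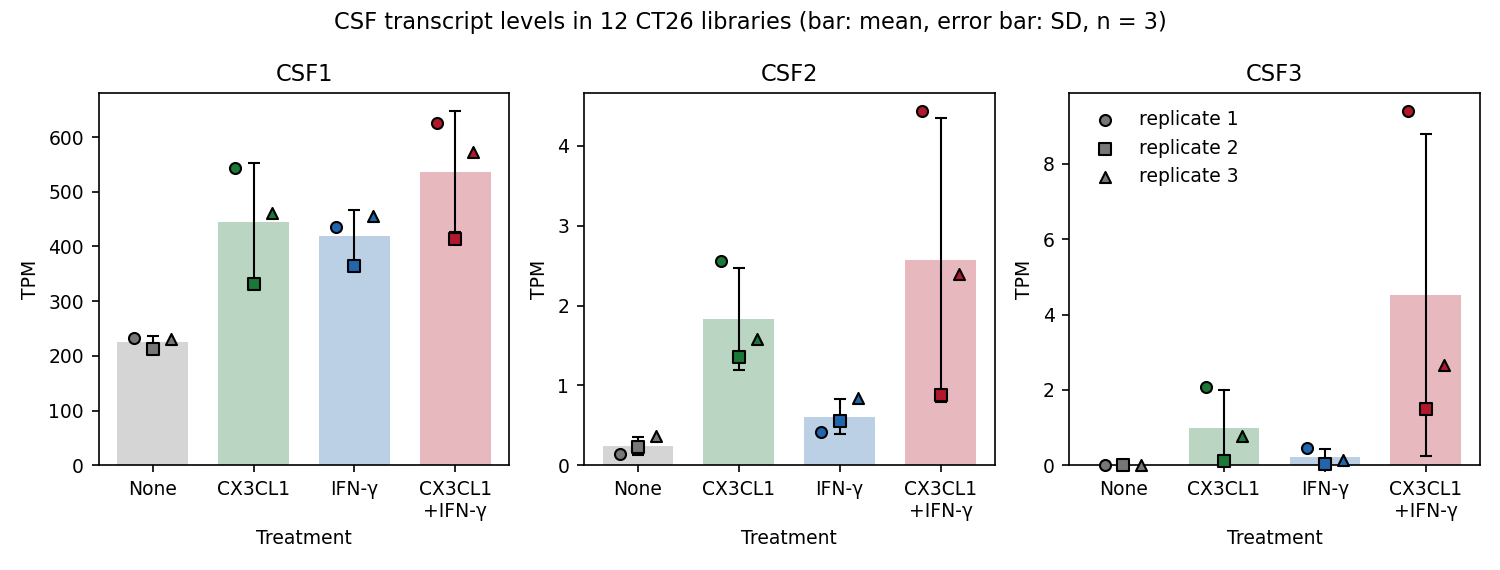
TPM (y axis, separate linear scales from 0) of CSF1, CSF2 and CSF3 by treatment, with 1 symbol per library, bars at the mean and error bars of 1 SD (n = 3). CSF1 is present in all groups, at 212 to 233 TPM without treatment, whereas CSF3 is listed at 0 in the 3 untreated libraries and reaches 9.39 TPM in 1 library with both agents.

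CSF1 rose with either agent alone, to 1.98 times the untreated mean with CX3CL1 and 1.86 times with IFN-γ. The untreated libraries held 233, 212 and 230 TPM in replicates 1, 2 and 3, a mean of 225 ± 11.5 TPM (SD, n = 3). With CX3CL1 the values were 544, 331 and 461 TPM, a mean of 445 ± 108 TPM (SD, n = 3). All 3 CX3CL1 libraries lay above all 3 untreated libraries, with replicate 2 the lowest. The difference in log2(TPM + 1) was 0.95 (standard error 0.18, 95% interval 0.56 to 1.35), called higher by limma at an adjusted p of 0.0139. Of the 11878 genes tested, 1.95% were called in this comparison (1.78% higher and 0.168% lower). The groups did not overlap for 11.2%, and for 5.5% the CX3CL1 libraries lay wholly above the untreated ones.

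The CSF1 call with CX3CL1 depended on which libraries were kept. Of the 6 fits without 1 library each, 4 lost it, with a limma adjusted p of 0.0743 and 0.0593 without untreated replicate 2 or 3, and 0.0663 and 0.0677 without CX3CL1 replicate 1 or 3. Without CX3CL1 replicate 2 the difference was 1.15 and the adjusted p 0.00383. In those 6 fits the difference ran from 0.79 to 1.15. With the replicate number as a block in the fit the limma adjusted p was 5.3e-04. The pairing of these groups was not seen in every number.

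With IFN-γ alone CSF1 stood at 436, 365 and 455 TPM, a mean of 419 ± 47.8 TPM (SD, n = 3), again above every untreated library. The difference from untreated cells was 0.89 in log2(TPM + 1) (standard error 0.18, 95% interval 0.49 to 1.29, limma adjusted p = 0.00896), called higher in all 6 fits that left out 1 library. Calls were far more common here, at 7.85% of genes tested (5.91% higher and 1.94% lower). This split of 702 higher and 230 lower was 640 and 351 with median-ratio scaling and 556 and 536 with quantile normalization. The groups did not overlap for 34.2% of genes, with 20.6% of genes wholly above the untreated libraries. Both differences use the same untreated libraries, so they are not independent of each other.

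With CX3CL1+IFN-γ the CSF1 values were 625, 413 and 572 TPM, a mean of 537 ± 110 TPM (SD, n = 3), or 2.39 times the untreated mean. These libraries overlapped both the CX3CL1 and the IFN-γ libraries. Against IFN-γ the difference was 0.34 (95% interval -0.06 to 0.74, limma adjusted p = 0.975), and against CX3CL1 it was 0.28 (95% interval -0.12 to 0.67, adjusted p = 0.481). Neither was called. Against IFN-γ 0.362% of genes were called (0.345% higher and 0.0168% lower), and against CX3CL1 4.7% were (3.76% higher and 0.935% lower). The latter split of 447 higher and 111 lower was 357 and 187 with median-ratio scaling and 349 and 228 with quantile normalization. The groups did not overlap for 16.3% and 19.5% of genes. The intervals leave room for a rise of up to 1.67-fold and 1.60-fold. The order of mean CSF1 levels was No treatment, IFN-γ, CX3CL1 and CX3CL1+IFN-γ, in which the first step was larger than the spread between libraries and the other neighbours overlapped.

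CSF2 was low at rest, and no difference between groups was called. Untreated libraries held 0.137, 0.232 and 0.363 TPM, a mean of 0.244 ± 0.114 TPM (SD, n = 3). With CX3CL1 the values were 2.56, 1.35 and 1.58 TPM, a mean of 1.83 ± 0.641 TPM (SD, n = 3) and 7.52 times the untreated mean. The groups did not overlap, and the lowest CX3CL1 library, replicate 2, was above the highest untreated one. On the log2(TPM + 1) scale, which understates changes of low genes, the difference was 1.17 (standard error 0.29, 95% interval 0.53 to 1.80), with a limma adjusted p of 0.0736 that missed the threshold. With a pseudocount of 0.1 the difference was 2.50 and was called (adjusted p = 0.0117), as it was with quantile normalization (adjusted p = 0.0473) and in a limma fit of these 6 libraries alone (adjusted p = 0.00777). Without CX3CL1 replicate 2 the adjusted p was 0.0946.

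IFN-γ alone gave CSF2 values of 0.419, 0.556 and 0.849 TPM, a mean of 0.608 ± 0.220 TPM (SD, n = 3), all just above the untreated libraries. The difference was 0.37 (standard error 0.29, 95% interval -0.27 to 1.00, limma adjusted p = 0.512) and was not called. With CX3CL1+IFN-γ the libraries were uneven, at 4.43, 0.881 and 2.40 TPM, a mean of 2.57 ± 1.78 TPM (SD, n = 3). Replicate 2 was the low library and stood only a little above the highest IFN-γ library. Against IFN-γ the difference was 1.03 (95% interval 0.39 to 1.66, adjusted p = 0.385). It was called without CX3CL1+IFN-γ replicate 2, with a difference of 1.43 (limma adjusted p = 0.0131), and in no other fit that left out 1 library.

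Against CX3CL1 alone, the CSF2 difference with both agents was 0.23 (95% interval -0.41 to 0.86, limma adjusted p = 0.753), and it turned to -0.14 without CX3CL1+IFN-γ replicate 1. The order of mean CSF2 levels was No treatment, IFN-γ, CX3CL1 and CX3CL1+IFN-γ. The libraries of the last 2 overlapped, and the other neighbours did not.

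CSF3 was listed at 0 TPM in all 3 untreated libraries and above 0 in all 9 treated ones. With CX3CL1 the values were 2.08, 0.110 and 0.773 TPM, and with IFN-γ 0.471, 0.0350 and 0.138 TPM. Replicate 2 was the lowest and replicate 1 the highest in both groups. No fold is given against a group listed at 0. The differences from untreated libraries were 0.87 with CX3CL1 (standard error 0.44, 95% interval -0.09 to 1.82, limma adjusted p = 0.735) and 0.26 with IFN-γ (95% interval -0.69 to 1.22, adjusted p = 0.781), and neither was called. Without CX3CL1 replicate 2 the first was 1.23 (limma adjusted p = 0.288), and without CX3CL1 replicate 1 it was 0.49. The second was 0.12 without IFN-γ replicate 1. With a pseudocount of 0.1 these differences were 2.88 with CX3CL1 and 1.40 with IFN-γ (limma adjusted p of 0.118 and 0.339). Their size therefore depends on the pseudocount.

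CSF3 reached its highest levels with both agents, at 9.39, 1.5 and 2.66 TPM in replicates 1, 2 and 3, a mean of 4.52 ± 4.26 TPM (SD, n = 3). Every one of these libraries lay above every IFN-γ library, whose mean was 0.215 ± 0.228 TPM (SD, n = 3), a separation that 8.54% of genes showed in this direction. Replicate 1 alone set much of the mean. The difference from IFN-γ was 1.93 (standard error 0.44, 95% interval 0.97 to 2.88, limma adjusted p = 0.146), not called unless the replicate number was a block, which gave an adjusted p of 0.0161. It was also called without CX3CL1+IFN-γ replicate 2 (difference 2.36, adjusted p = 0.0299), and it fell to 1.33 without replicate 1. With a pseudocount of 0.1 the difference was 3.72 and was not called (limma adjusted p = 0.113).

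Against CX3CL1 alone, the CSF3 difference with both agents was 1.32 (95% interval 0.37 to 2.27, limma adjusted p = 0.120). With the block the adjusted p was 0.0199, and without CX3CL1+IFN-γ replicate 2 the difference was 1.76 (adjusted p = 0.0367). Without CX3CL1+IFN-γ replicate 1 the difference was 0.73, and with a pseudocount of 0.1 it was 2.24 (limma adjusted p = 0.155). The groups overlapped, since CX3CL1 replicate 1 stood above CX3CL1+IFN-γ replicate 2. Mean CSF3 levels were ordered No treatment, IFN-γ, CX3CL1 and CX3CL1+IFN-γ, and apart from the untreated libraries listed at 0 each pair of neighbours overlapped.

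**Figure D3:**
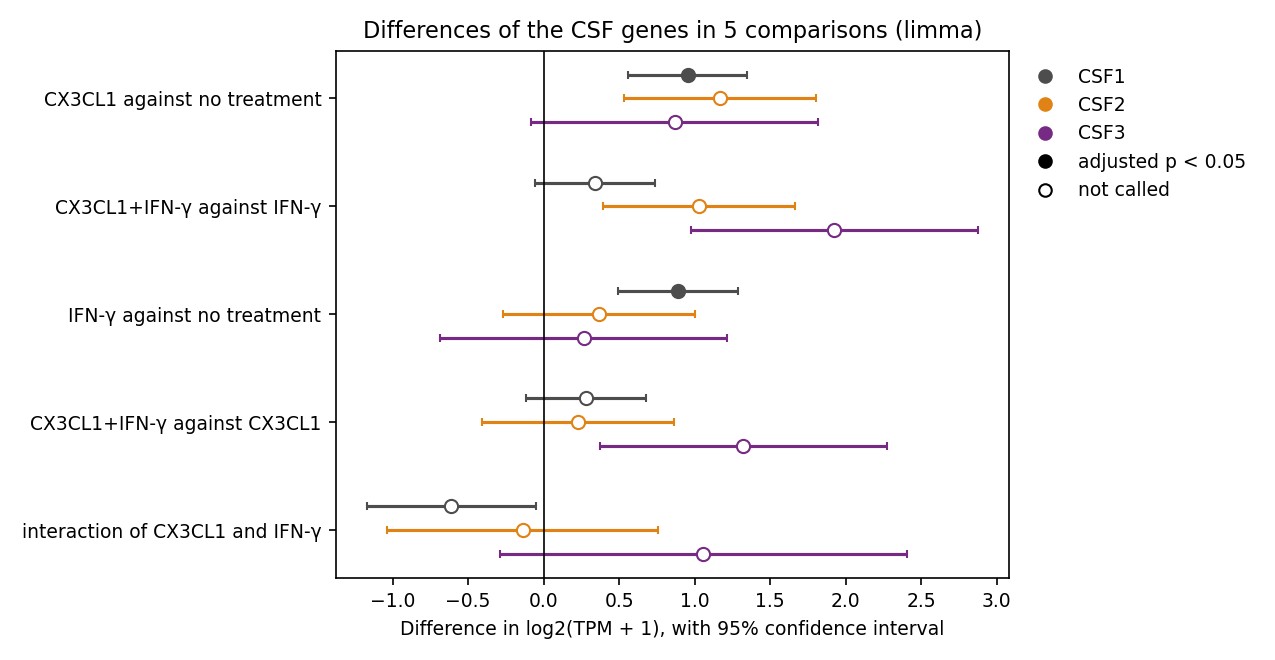
Differences in log2(TPM + 1) (x axis) of CSF1, CSF2 and CSF3 in 5 comparisons (y axis), with 95% confidence intervals from limma, filled where the adjusted p was under 0.05. The filled points are CSF1 with CX3CL1 and with IFN-γ against no treatment, at 0.95 and 0.89, and the widest intervals are those of CSF3. This scale understates changes of genes with low TPM, here CSF2 and CSF3.

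Libraries with the same replicate number tended to move together for CSF1 and CSF3, but not for CSF2. CSF1 was lowest in replicate 2 in all 4 groups, and CSF3 was highest in replicate 1 and lowest in replicate 2 in all 3 treated groups. CSF2 was lowest in replicate 1 and highest in replicate 3 without treatment and with IFN-γ. With CX3CL1 and with both agents it was lowest in replicate 2 and highest in replicate 1. Within a number, CX3CL1+IFN-γ exceeded IFN-γ for CSF3 by 19.9, 42.8 and 19.2 times in replicates 1, 2 and 3, a narrower spread than that of the TPM values themselves. For CSF2 the same ratios were 10.6, 1.58 and 2.82, and for CSF1 they were 1.43, 1.13 and 1.26. All 9 ratios were above 1, but the 3 genes share the same libraries, so the ratios are not independent. None of the 3 differences was called in the main fit. How many genes in all had such ratios was not counted. Against CX3CL1 within a number, CX3CL1+IFN-γ gave CSF3 ratios of 4.51, 13.6 and 3.44 and CSF1 ratios of 1.15, 1.25 and 1.24. The CSF2 ratios were 1.73, 0.651 and 1.51, so that replicate 2 went the other way.

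**Figure D4:**
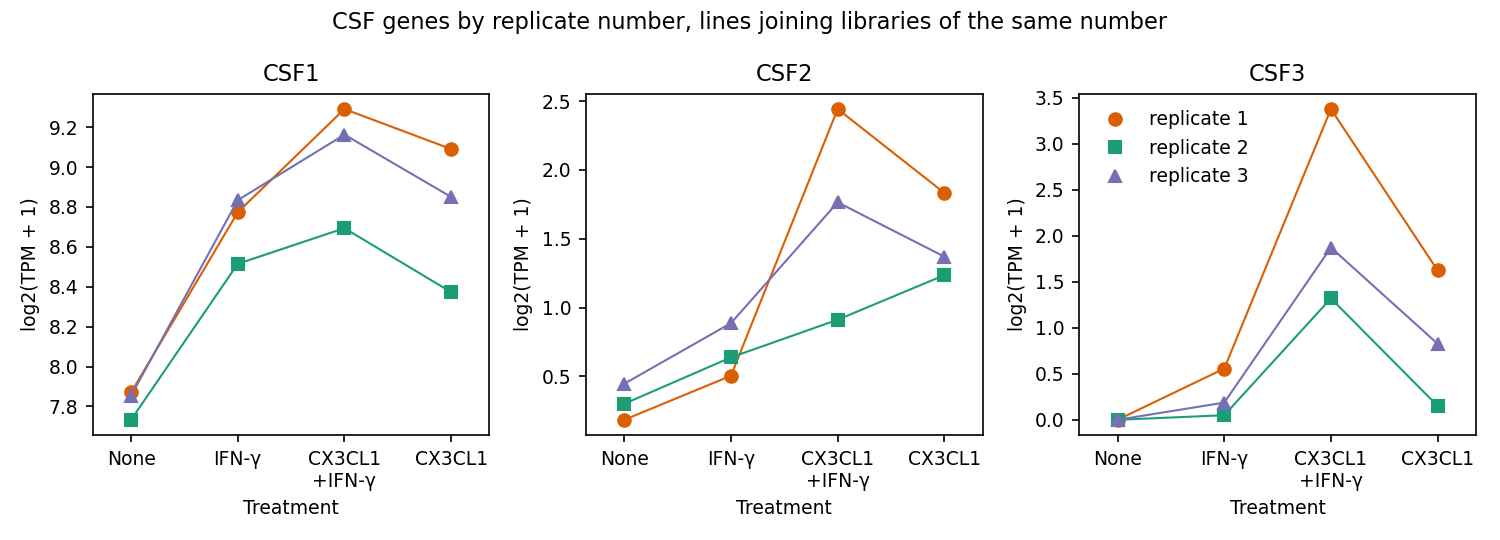
Log2(TPM + 1) (y axis, separate scales) of CSF1, CSF2 and CSF3 in each library, with lines joining libraries of the same replicate number across treatments (x axis). CSF3 peaks with both agents in all 3 numbers, whereas CSF2 replicate 2 is lower with both agents than with CX3CL1 alone.

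The interaction tested whether the effect of CX3CL1 was the same in untreated and IFN-γ cells. For CSF1 it was -0.61 (95% interval -1.17 to -0.05). For CSF2 it was -0.14 (95% interval -1.04 to 0.76), and for CSF3 it was 1.06 (95% interval -0.29 to 2.41), or 0.46 without CX3CL1+IFN-γ replicate 1. With a pseudocount of 0.1 the CSF2 and CSF3 values were -0.79 and 0.84. None was called (limma adjusted p of 1.00 for each), and 0 of the 11878 genes, or 0%, were called for the interaction by limma, with 273 at an unadjusted p under 0.05. A difference between the CX3CL1 effects was therefore not shown for any member, and the intervals of CSF2 and CSF3 are wide.

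The receptors of these factors, and a paralog of the CSF2RB beta chain, were listed at 0 or at low levels. CSF2RA and CSF3R were at a listed 0 in all 12 libraries, which may mean that no estimate was made. CSF1R was at most 0.0283 TPM, CSF2RB at most 0.0217 TPM and its mouse paralog CSF2RB2 at most 0.0662 TPM, and reads shared by these paralogs could have been split between them. None of these 5 genes passed the filter for testing. Of 8 other growth factors of blood cells, 5 were tested and none was called with CX3CL1, where 1.95% of all genes were. With IFN-γ 2 of the 5 were called higher, against 5.91% of all genes. With both agents against CX3CL1 1 was, against 3.76%. IL34, which encodes the other ligand of CSF1R, was called higher with IFN-γ, from 7.67 ± 1.88 to 14.0 ± 2.66 TPM (SD, n = 3), a log2 difference of 0.80 (limma adjusted p = 0.0320), a call lost in 4 of 6 fits without 1 library. FLT3L, which drives dendritic cell development, was also called higher with IFN-γ, from 5.35 to 12.6 TPM (log2 difference 1.08, adjusted p = 7.7e-04), and also against CX3CL1 when IFN-γ was added (log2 difference 0.74, adjusted p = 0.0183, lost without CX3CL1+IFN-γ replicate 1 or 3). KITL, the stem cell factor, had means from 54.8 to 60.2 TPM over the 4 groups and was not called. IL11 was not called in the main fit. With the replicate block it was called higher with IFN-γ (limma adjusted p = 0.0296) and with both agents against CX3CL1 (0.0160).

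Of 16 transcription factors known to act on CSF promoters, all were tested, and 5 were called higher with CX3CL1, where 1.78% of all genes were, and none lower. The list had a median log2 difference of 0.42, against -0.02 over all genes. CEBPD, a C/EBP factor of acute inflammation, rose from 5.53 to 39.1 TPM (log2 difference 2.60, limma adjusted p = 0.00636). RELB and NFKB1, which encode NF-κB subunits, rose by 1.67 (adjusted p = 0.00112) and 0.93 (adjusted p = 2.5e-04). NFKB2 and ETS1 were called at adjusted p of 0.0307 and 0.0449, and lost the call in 5 and 6 of the 6 fits that left out 1 library. With IFN-γ alone, where 5.91% of all genes were called higher, 4 of the 16 were, RELB by 1.82, JUNB by 0.94, CEBPB by 0.75 and ETS2 by 0.59, of which ETS2 lost the call in 4 of 6 fits without 1 library. With the replicate block NFKB2, CEBPD and FOS were called there too (limma adjusted p of 0.0459, 0.0225 and 0.0353). For CX3CL1 against no treatment, where the pairing was not seen in every number, the block also called JUNB and ETS2 higher (0.0196 and 0.00819). In the presence of IFN-γ, CX3CL1 raised only NFKB1 among the 16, by 0.82 (adjusted p = 0.00151), while CEBPD had a difference of 2.32 (adjusted p = 0.0513) that was called with the replicate block (adjusted p = 0.00594).

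Of 11 factors that control the decay or stability of AU-rich and stem-loop cytokine messages, all were tested and 2 were called higher with CX3CL1, against 1.78% of all genes. ZC3H12A, which encodes the ribonuclease Regnase-1, rose from 3.61 ± 0.283 to 31.6 ± 9.07 TPM (SD, n = 3), a log2 difference of 2.79 (limma adjusted p = 1.4e-04). With IFN-γ present CX3CL1 raised it from 7.88 to 44.8 TPM (log2 difference 2.31, adjusted p = 0.00128), and both calls held in all 6 fits that left out 1 library. ZFP36L1, an AU-rich element binding protein that promotes decay, was called with CX3CL1 (log2 difference 0.65, adjusted p = 0.0357) but lost the call in 4 of those 6 fits. ZFP36, which encodes tristetraprolin, had means of 14.7 TPM without treatment, 18.3 with CX3CL1, 27.9 with IFN-γ and 29.2 with both, and was not called. With the replicate block ZFP36, ZFP36L1 and ZC3H12A were called higher with IFN-γ (limma adjusted p of 0.00144, 0.0393 and 0.00483), and ZFP36 also with both agents against CX3CL1 (0.00895). ELAVL1, which stabilises AU-rich messages, had means from 52.0 to 60.1 TPM and was not called. The median of the list with CX3CL1 was 0.07, against -0.02 over all genes.

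**Figure D5:**
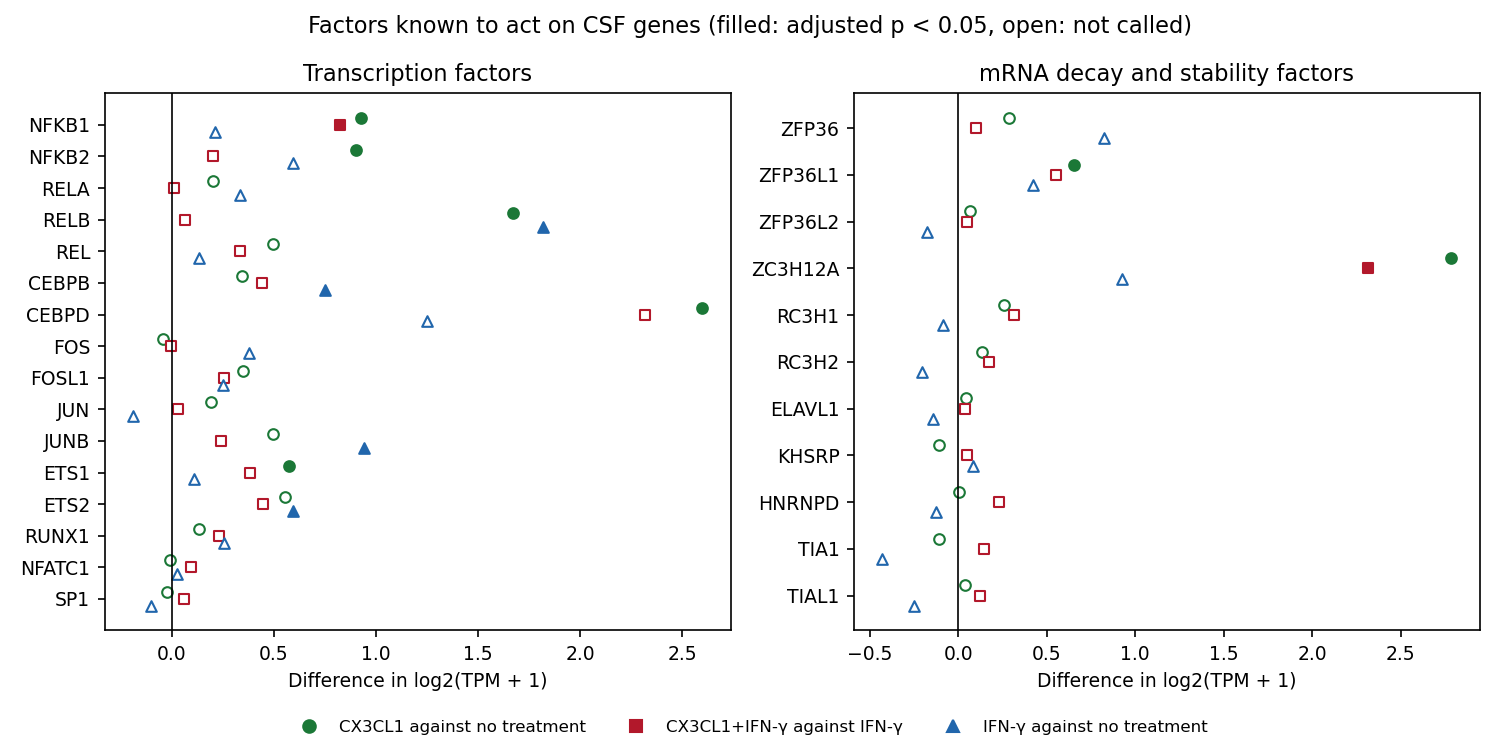
Differences in log2(TPM + 1) (x axis) for 16 transcription factors (left) and 11 mRNA decay and stability factors (right) in 3 comparisons, filled where the limma adjusted p was under 0.05. CEBPD and ZC3H12A have the largest CX3CL1 differences on their panels, 2.60 and 2.79.

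Genes of cytokines that are known inducers of CSF transcription were mostly not expressed. TNF was at most 0.0349 TPM, IL1B at most 0.157 TPM, and IL17A was listed at 0 in all libraries. When IFN-γ was present, CX3CL1 raised IL1A (log2 difference 1.71, limma adjusted p = 0.0283, lost in 4 of 6 fits that left out 1 library) and reached 8.27 TPM in 1 library with both agents. The receptor genes TNFRSF1A, IL1R1, IL17RA and TLR4 were expressed, the first at means from 95.3 to 137 TPM, and none was called in the 4 comparisons between groups. With the replicate block TNFRSF1A was called higher with IFN-γ (limma adjusted p = 0.0205) and with both agents against CX3CL1 (0.0154). A last list held other mediators assayed as secreted protein in the same work, which also assayed G-CSF and M-CSF, the proteins of CSF3 and CSF1. Of its 5 genes, IL6, LIF, CXCL1 and CCL5 were called higher with CX3CL1, against 1.78% of all genes, and CCL5 lost the call in 3 of 6 fits without 1 library. LIF, a cytokine of the IL-6 family, rose from 7.43 to 20.8 TPM with CX3CL1 (log2 difference 1.35, limma adjusted p = 0.0123). That call was lost in 4 of 6 fits that left out 1 library. IL6, LIF, CXCL1 and CCL5 were also called higher with IFN-γ alone, against 5.91% of all genes. There LIF lost the call in 3 of 6 such fits. CXCL2, a neutrophil chemokine, was listed at 0 in the untreated libraries like CSF3. It was not called with CX3CL1 alone (log2 difference 0.69, limma adjusted p = 0.233). With IFN-γ present, CX3CL1 raised 3 of the 5 genes, against 0.345% of all genes. They were IL6 (log2 difference 2.07, limma adjusted p = 7.5e-04), CXCL1 (4.17, adjusted p = 2.6e-04) and CXCL2 (2.36, adjusted p = 3.3e-04). After the stop codon, CXCL1 had 11.8, CXCL2 7.36, IL6 6.0 and LIF 2.20 ATTTA pentamers per 1000 bases, and CCL5 had none.

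The genes most like each member were found by Pearson correlation of log2(TPM + 1) over the 12 libraries, among 10753 others with a mean of at least 1 TPM. The points share libraries and treatments, so the values are descriptions. For CSF1 the closest were SLC2A6 (0.98), a hexose transporter, NFKBIA (0.98), which encodes an NF-κB inhibitor, RHBDF2 (0.97), TMEM184B (0.96) and LIF (0.96). NFKBIA shared the rise with either agent, with means of 16.8 TPM without treatment, 85.3 with CX3CL1 and 72.3 with IFN-γ. For CSF2 they were MAP4K4 (0.95), a kinase, NFKBID (0.95), an atypical NF-κB regulator, PHLDA1 (0.93), CYTH3 (0.92) and ZC3H12A (0.92). For CSF3 they were PTGES (0.96), the inducible prostaglandin E synthase, NOS2 (0.94), the inducible nitric oxide synthase, POU2F2 (0.94), NPPB (0.94) and DHRS3 (0.94). NOS2 had means of 0.0324 TPM without treatment, 1.82 with CX3CL1, 1.23 with IFN-γ and 25.5 with both. Among themselves, CSF2 and CSF3 had a correlation of 0.88, CSF1 and CSF2 of 0.84 and CSF1 and CSF3 of 0.78.

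The levels of the protein-coding neighbours are given as a description. IL3, 15636 bases from CSF2 and its closest coding neighbour, was listed at 0 in all 12 libraries, and ACSL6, the next gene on that side, was at most 0.0135 TPM. PSMD3, a proteasome subunit gene, and MED24, a Mediator subunit gene only 962 bases from CSF3, had means from 169 to 184 TPM and from 20.0 to 23.6 TPM over the 4 groups, while CSF3 went from a listed 0 to 4.52 TPM. AHCYL1, 44488 bases from CSF1, had 231 TPM without treatment and 217 with CX3CL1. Of the 12 neighbours, 6 were tested, and none was called in any of the 5 comparisons. Of all genes tested, 0% to 7.85% were called, so few calls would be seen among any 6 genes.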

How the data were processed

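RNA of 12 CT26 libraries was measured by strand-specific mRNA sequencing. The authors aligned reads to mm10 and counted genes with STAR 2.7.3a in the VIPER pipeline, and the deposited values are TPM, scaled to 1000000 per library. How the authors turned counts into TPM is not given in the sources used here, and their DESeq2 1.22.1 test of counts was not repeated on TPM. Of 23636 symbols, 6747 were listed at 0 in every library and 26 had become dates. Groups came from the labels, and doses and time from the study's methods.

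From the deposited TPM, log2(TPM + 1) was fitted with limma 3.58.1 (R 4.3.3, lmFit, eBayes with trend) over the 11878 genes averaging 0.2 TPM or more, and the 12 libraries shared 1 estimate of the spread. Benjamini-Hochberg adjustment ran over all genes tested, with a threshold of 0.05. An exact permutation test of 3 against 3 cannot go below 0.1 and was not used. The fit was tested on simulated data. Tables and sequences were handled in Python 3.11.15 (pandas 2.3.3).

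The members and lists were chosen with earlier results of these data known. Named are the members, genes of lists on receptors, growth factors, transcription factors, mRNA decay, upstream cytokines and mediators, cell markers, the 5 genes most alike, and 2 coding neighbours a side. RPL26 was chosen after its values were seen. One listed gene of the IFN-γ response check is not reported here. Alternatives were another pseudocount, other filters, 2 scalings, no trend, only the compared libraries, a replicate block and leaving out each library.

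Deviations from group means correlated over 0.1 in every same-numbered pair for CX3CL1+IFN-γ and IFN-γ (0.630, 0.635 and 0.649), IFN-γ and No treatment (0.429, 0.460 and 0.220), and CX3CL1+IFN-γ and CX3CL1 (0.351, 0.353 and 0.428). The pairing rests on these correlations. CX3CL1 and No treatment had 0.387, 0.00472 and 0.301 in replicates 1, 2 and 3. Replicate 2 did not reach 0.1, so the pairing was not shown for every number there.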

Additional observations from a re-analysis of the deposited data

How the results depend on the processing

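Of 225 recomputed differences of CSF1, CSF2 and CSF3, 208 kept their direction and side of the threshold, and the cause of the others was not tested. For CX3CL1 against no treatment, CSF1 (0.95) was not called when genes of any TPM were kept (0.95, adjusted p = 0.0548), and without single libraries it ran from 0.79 to 1.15. There CSF2 was called with a pseudocount of 0.1 (2.50), quantile normalization (1.19), only the libraries compared (1.17) and the replicate block (1.17). With the replicate block CSF3 was called against IFN-γ (1.93) and against CX3CL1 (1.32) when both agents were given, and the block changed no other call of these genes. Without single libraries, CX3CL1+IFN-γ against IFN-γ ran from 0.66 to 1.43 for CSF2 and from 1.33 to 2.36 for CSF3, and against CX3CL1 from -0.14 to 0.62 and from 0.73 to 1.76. The CSF2 interaction ran from -0.51 to 0.26, turning positive without CX3CL1 replicate 1 (0.04) or CX3CL1+IFN-γ replicate 2 (0.26).

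The number of genes called for CX3CL1 against no treatment was 232, 455 with the replicate block and 152 to 268 without single libraries. For CX3CL1+IFN-γ against IFN-γ it was 43, 95 with the block, 28 without the filter, 20 in the libraries compared and 16 to 54 without single libraries. For IFN-γ against no treatment it was 932, 1929 with the block and 530 to 764 without single libraries. For CX3CL1+IFN-γ against CX3CL1 it was 558, 1369 with the block, 344 in the libraries compared and 270 to 668 without single libraries. For the interaction it was 0, 52 with the block, 1 with quantile normalization and 0 to 11 without single libraries. Mean CSF levels moved by less than 1 SD under median-ratio scaling. TPM carry no depth, so precision rests on 3 libraries a group.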
